A study of Mus musculus with 14 samples.

Results

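Respiratory complex I, the NADH:ubiquinone oxidoreductase, was described here through the transcripts of its nuclear-encoded subunits in mouse oocytes with and without the mitochondrial fission factor Mff. The members were the genes whose symbol begins with Nduf in both deposited count tables, leaving out the Ndufaf assembly factors and pseudogenes. This gave 40 of the 16196 genes that both tables list. The germinal vesicle (GV) stage was represented by 4 WT and 4 CKO libraries and the ovulated stage by 3 of each genotype. WT oocytes carried floxed Mff alleles (Mff fl/fl) and no Cre, and CKO oocytes carried the same floxed alleles with Gdf9-Cre, whose promoter is active in oocytes from early follicles on. Both genotypes therefore share the floxed alleles, and a Cre control without them was not analysed here. No source used here gives ages or how many animals or oocytes stand behind a library, and the p-values therefore cover the spread among libraries, which may be technical.

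Complex I takes electrons from NADH through a flavin and a chain of iron-sulphur clusters to ubiquinone, and pumps protons across the inner mitochondrial membrane. Its N module binds NADH, its Q module binds ubiquinone, and its P module forms the membrane arm that pumps. A small set of core subunits carries the chemistry, some of them encoded in mitochondrial DNA, and the supernumerary subunits around them serve assembly and stability. Fully grown oocytes are almost silent in transcription and clear many stored mRNAs while they mature, so that the course from GV to ovulation is read against a general loss of maternal transcripts.

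The members comprised 10 N-module subunits, 6 Q-module subunits and 20 P-module subunits. Ndufb4b and Ndufb4c, near copies of Ndufb4, add 2 rows whose reads cannot be told apart with certainty from those of Ndufb4. The last 2, Ndufa4 and Ndufa4l2, bear the family name but are not subunits of complex I by current knowledge: Ndufa4 belongs to cytochrome c oxidase, and Ndufa4l2 is its hypoxia-induced relative. Ndufb1 was not analysed here, nor were the subunits encoded in mitochondrial DNA. Levels below are in CPM, counts scaled to library size after TMM normalisation over all 14 libraries. A gene is called where its Benjamini-Hochberg adjusted p over the genes tested is under 0.05 in edgeR's quasi-likelihood test. Log2 fold changes carry an approximate standard error (SE). It was derived from that test, as the absolute log2 fold change divided by the square root of the F statistic.

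Library totals lay between 26575593 and 28847424 estimated counts. Mff was far lower in every CKO library: 477 to 945 CPM in GV WT against 30.1 to 47.2 CPM in GV CKO, and 304 to 688 CPM in ovulated WT against 31.3 to 54.4 CPM in ovulated CKO. All 9 oocyte markers were detected in every group, with a summed level of 14664 to 41188 CPM. The 11 of 16 granulosa and cumulus markers in both tables summed to 61.5 to 113 CPM, with Fshr and Lhcgr at or below 0.228 CPM and Cyp19a1 at 36.0 to 87.0 CPM in the ovulated libraries, and 6 of 9 blood, immune and stromal markers summed to 25.1 to 132 CPM. Some libraries stood apart: the 100 most abundant genes took 35.2% to 42.4% of counts in GV WT 2, GV CKO 1 and GV CKO 2 against 48.2% to 51.1% in the other 5 GV libraries, and 25.0% in ovulated CKO 2 against 29.5% to 35.4% in the other 5 ovulated libraries.

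The promoters of the members were searched because most members moved together in the comparisons below. RefSeq promoter sequences (GRCm38.p6, 250 bases before to 50 after the gene start) were matched for 34 of the 40 members. The letters AAGATGGC, the core of the motif of the transcription factor YY1, occurred on either strand in 7 of them (20.6%), against 4.02% of 14669 genes with a promoter in the same table. All 7 lay on the gene's own strand, 23 to 39 bases after the gene start, and the ATG inside the letters was the annotated start codon in all 7. They are shown with 30 bases of context, AAGATGGC in capitals, since the genes range from the largest rise in ovulated CKO oocytes (Ndufc1) to no call (Ndufs4 and Ndufb8).
Ndufc1, chr3:51408915-51408944, minus strand: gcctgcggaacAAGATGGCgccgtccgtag
Ndufa9, chr6:126849097-126849126, minus strand: cattgtgggagAAGATGGCggccgccgtcc
Ndufa3, chr7:3617384-3617413, plus strand: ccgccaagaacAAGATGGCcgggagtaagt
Ndufs7, chr10:80249462-80249491, plus strand: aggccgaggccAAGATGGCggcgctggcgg
Ndufs6, chr13:73328433-73328462, minus strand: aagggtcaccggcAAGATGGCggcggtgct
Ndufs4, chr13:114388045-114388074, minus strand: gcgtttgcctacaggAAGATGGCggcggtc
Ndufb8, chr19:44555393-44555422, minus strand: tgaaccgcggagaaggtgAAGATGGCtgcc

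GCATGCGC, the core of the motif of NRF1, occurred in 3 of the 34 promoters (8.82%) against 4.62% of all, and CCGGAAGT, an ETS-family motif, occurred in 1 (2.94%) against 6.71%. A match describes the letters in this window and does not show binding.

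The mRNAs of the members are short. In the GENCODE M21 annotation the 38 members with an annotated mRNA had a median length of 921 bases against 2839.5 over 17094 genes, and a median 3′ UTR of 149.5 against 917 bases. Cytoplasmic polyadenylation elements, through which maternal mRNAs gain poly(A) during maturation, were searched as TTTTAT or TTTTAAT in the last 100 bases. They occurred in 4 members (10.5%) against 17.9% of genes, namely Ndufa2, Ndufab1, Ndufc2 and Ndufs4. The annotated Ndufab1 mRNA has 3479 bases, 2947 of them 3′ UTR, while its deposited counts and FPKM imply a length of 409 bases. Whether the measured Ndufab1 mRNA carries the element was not tested. The 3 shown here, with the element in capitals, belong to Ndufab1 and Ndufc2 on chromosome 7 and Ndufs4 on chromosome 13, members that took different courses below.
Ndufab1: aaatttcagactTTTTATtaacaataaatt
Ndufc2: atattttctgagTTTTATgggattttctgt
Ndufs4: ccaatggagatcTTTTATtcttaggaaata

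**Figure D1:**
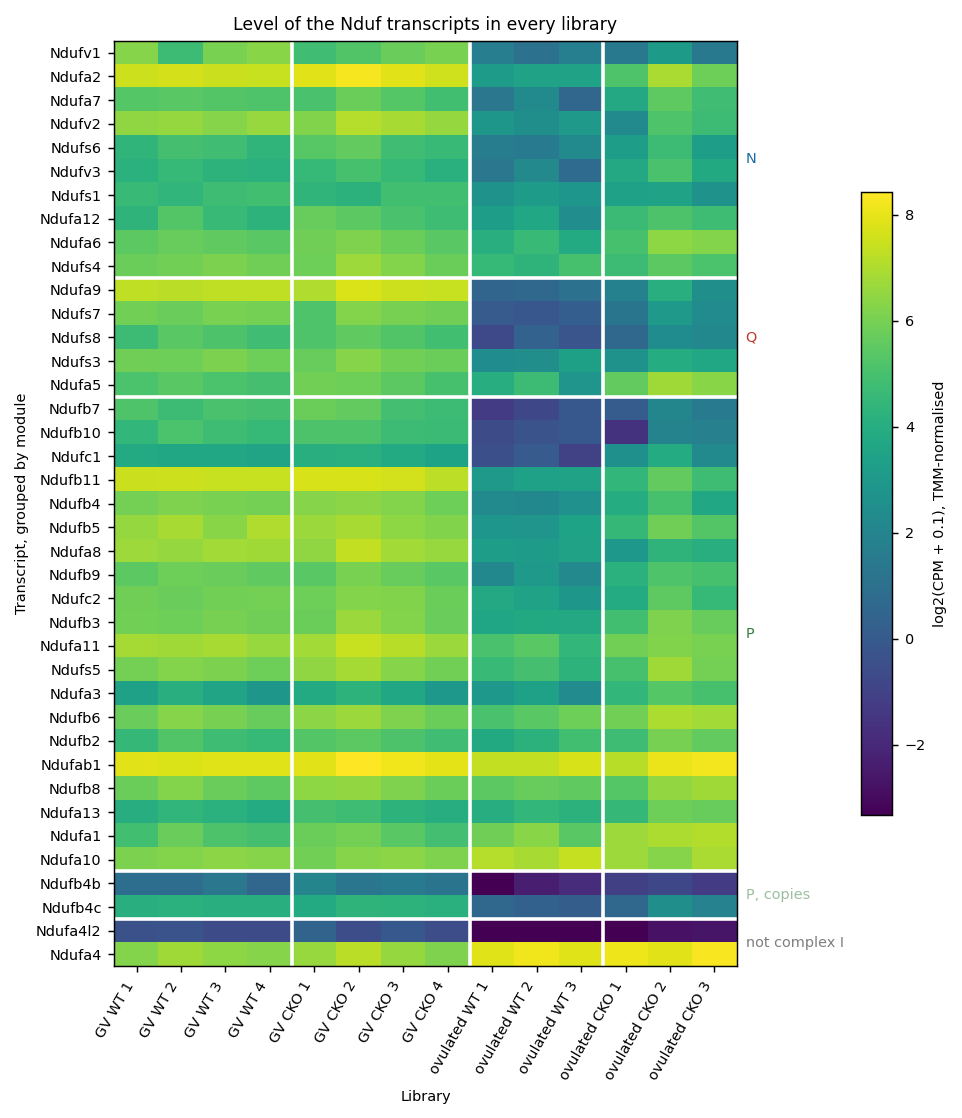
Level of 39 Nduf transcripts (rows, grouped by module) in each of the 14 libraries (columns), as log2(CPM + 0.1). The ovulated WT columns are the darkest for most N- and Q-module rows, the ovulated CKO columns are lighter, and Ndufa4 and Ndufa10 are brighter in ovulated than in GV oocytes.

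The mRNA levels of the subunits were far from equal. Per length, in the deposited FPKM, the 36 single-locus subunits of GV WT oocytes ran from 8.53 FPKM for Ndufs1, the largest iron-sulphur subunit of the N module, to 483 FPKM for Ndufab1, the mitochondrial acyl carrier protein that also serves fatty acid synthesis. The median was 93.9 FPKM, and 1 subunit lay under 10 FPKM. In ovulated WT oocytes the spread was wider, from 1.47 FPKM for Ndufs8 to 470 FPKM for Ndufab1, with a median of 16.3 FPKM and 10 subunits under 10 FPKM. The SD of log2 FPKM over the 36 subunits was 1.19 in GV WT, 1.23 in GV CKO, 2.21 in ovulated WT and 2.02 in ovulated CKO. The median was 115 FPKM in GV CKO and 76.7 FPKM in ovulated CKO.

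Ndufab1 had the highest mean FPKM of the members in both GV groups, although Ndufa2 was above it in GV WT 2 and GV CKO 1. It measured 403, 636, 471 and 422 FPKM in GV WT and 713, 776, 547 and 501 FPKM in GV CKO. In ovulated oocytes Ndufa4, the cytochrome c oxidase subunit, was highest, with 919, 1136 and 910 FPKM in WT and 1205, 1239 and 1456 FPKM in CKO. Ndufa4l2 was the lowest at both stages, at 0.56 to 1.16 FPKM in GV WT, 0.66 to 2.14 FPKM in GV CKO, 0 in all 3 ovulated WT libraries and at most 0.1 FPKM in ovulated CKO.

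From GV to ovulation in WT oocytes, most complex I transcripts fell, among them every subunit listed here under the N and Q modules. Of the 40 members 31 were lower in ovulated WT oocytes, beside 36.2% of all genes tested, and 3 were higher, beside 30.3% of all genes. All 10 N-module and all 6 Q-module subunits were among those that fell, while in the P module 12 of 20 fell and 2 rose. The median log2 fold change was -2.81 in the N module, -5.50 in the Q module and -1.97 in the P module, beside -0.17 over all genes. Complex I subunits ranged from 1.02% of their GV level for Ndufa9 to 185% for Ndufa10. The stages were deposited as separate tables, so that stage and the run of a table cannot be told apart. Levels are scaled to the other transcripts of a library, so a rise or fall between stages is a relative one. The amount of mRNA per oocyte was not tested, nor was the part of poly(A) tail length in the measured levels of either stage or genotype.

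Q-module transcripts reached the lowest shares of their GV level. Ndufa9, a supernumerary subunit at the junction of the arms, measured 158, 146, 156 and 160.0 CPM in GV WT and 1.34, 1.45 and 1.96 CPM in ovulated WT, a log2 fold change of -6.61 (SE 0.50, edgeR adjusted p = 1.76e-08). Ndufs7, the core subunit whose terminal iron-sulphur cluster hands electrons to ubiquinone, measured 60.5, 53.5, 67.4 and 61.7 CPM in GV WT and 0.932, 0.807 and 1.03 CPM in ovulated WT, a log2 fold change of -6.03 (SE 0.43, edgeR adjusted p = 1.42e-08). In both genes the stages were far apart in every library. Ndufa5, a supernumerary Q-module subunit, was the exception in size, with a log2 fold change of -1.11 (SE 0.37, edgeR adjusted p = 0.0143), a call that was lost without ovulated WT 3.

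In the membrane arm Ndufb11, an X-linked supernumerary subunit, measured 180.3, 183, 173 and 171 CPM in GV WT and 7.80, 10.4 and 10.7 CPM in ovulated WT. Its log2 fold change was -4.20 (SE 0.31, edgeR adjusted p = 1.76e-08), with no overlap of the stages. Ndufb7 and Ndufb10, cysteine-rich subunits that face the intermembrane space, fell too, with log2 fold changes of -5.87 and -5.23. Other members listed here under the P module did not pass the test: Ndufab1, Ndufb2, Ndufb6, Ndufb8, Ndufa3 and Ndufa13 had log2 fold changes between -0.58 and 0.08. With the length trend of each library removed, all 6 were called higher, by 1.18 to 1.62 on the log2 scale.

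The 3 members that rose to ovulation in WT were Ndufa4, Ndufa10 and Ndufa1. Ndufa4 measured 75.9, 106, 86.7 and 77.4 CPM in GV WT and 228, 286 and 234 CPM in ovulated WT, a log2 fold change of 1.52 (SE 0.25, edgeR adjusted p = 3.84e-05). Ndufa10, a supernumerary subunit with a nucleoside-kinase fold, measured 69.7, 76.1, 82.9 and 77.6 CPM in GV WT and 140.0, 117 and 168 CPM in ovulated WT, a log2 fold change of 0.89 (SE 0.22, edgeR adjusted p = 0.00191). Neither gene's stages overlapped. Ndufa1, an X-linked membrane-arm subunit, had a log2 fold change of 0.71 (SE 0.29, edgeR adjusted p = 0.0406) with overlapping stages, and it lost the call without GV WT 1, 3 or 4 or without ovulated WT 1 or 2.

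Ndufa4l2 had 11 to 22 counts in the GV WT libraries and 0 in the 3 ovulated WT libraries. Against a floor of 3 counts per library it was at least 6.20-fold lower in ovulated WT. With Ndufa4l2 at that bound the median log2 fold change of the 40 members was -2.81 in place of -2.98.

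In CKO oocytes the fall from GV to ovulation was called in 23 of 40 members, beside 31.2% of all genes, and 4 were higher, beside 23.2% of all genes. The median log2 fold change was -1.14, beside -0.19 over all genes. In the N module 6 of 10 fell, in the Q module 5 of 6, and in the P module 9 of 20 fell and 3 rose. Ndufa9 had the smallest p and measured 131, 218, 187 and 171 CPM in GV CKO and 3.47, 16.5 and 5.62 CPM in ovulated CKO, a log2 fold change of -4.37 (SE 0.44, edgeR adjusted p = 8.07e-07). Ndufs7 measured 36.8, 75.6, 64.4 and 57.9 CPM in GV CKO and 2.29, 7.79 and 4.92 CPM in ovulated CKO, a log2 fold change of -3.55 (SE 0.37, edgeR adjusted p = 1.07e-06).

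Ndufa8, another cysteine-rich membrane-arm subunit, measured 88.1, 163, 112 and 99.3 CPM in GV CKO and 7.50, 19.9 and 16.6 CPM in ovulated CKO, a log2 fold change of -2.98 (SE 0.32, edgeR adjusted p = 1.51e-06). None of these 3 genes overlapped between stages. The members that rose in CKO were Ndufa4 (1.45), Ndufa1 (1.34), Ndufa3 (1.20) and Ndufa13 (0.90 on the log2 scale), the last of them with overlapping stages, and its call was lost without GV CKO 3 or 4 or without ovulated CKO 2 or 3.

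**Figure D2:**
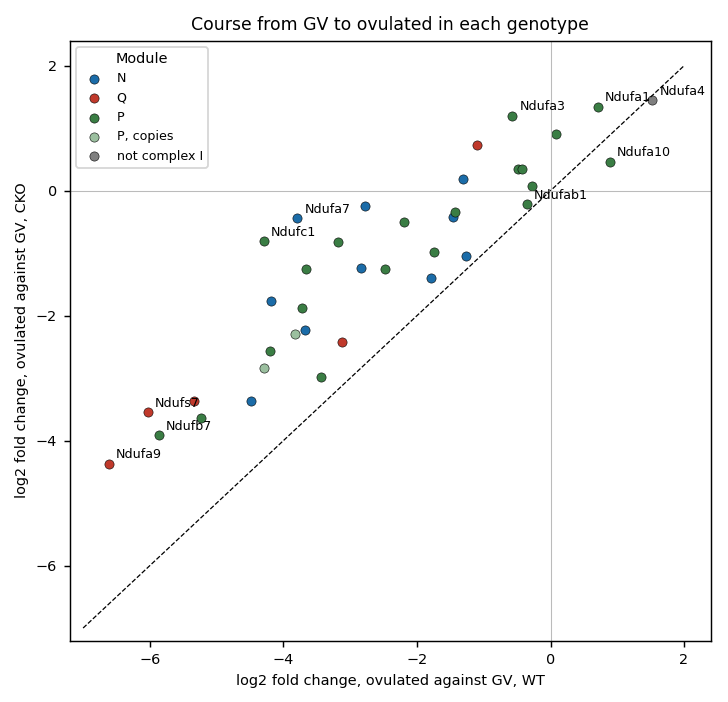
Log2 fold change from GV to ovulated in WT (horizontal axis) against the same in CKO (vertical axis) for 38 members, coloured by module, with the line of equal change dashed. Ndufa4l2, which was at 0 in ovulated WT, is left out. All plotted points but Ndufa10 and Ndufa4 lie above the line, and the Q-module subunits Ndufa9 and Ndufs7 lie at the lower left in both genotypes.

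The ordering of the members was shared by both genotypes, as the plot of the stage courses shows. Across 39 members Pearson's r between the courses was 0.91 and Spearman's rho 0.91, as a description across genes that share libraries and normalisation. The ovulated level had a median of 12.7% of the GV level in WT and 45.4% in CKO. In WT 18 members lay under 10% and 4 above 100%. In CKO 8 lay under 10% and 10 above 100%.

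Core and supernumerary subunits are given side by side, with no test between them. All 7 nuclear-encoded core subunits fell in both genotypes, with a median log2 fold change of -4.48 in WT (range -6.03 to -1.79) and -3.36 in CKO. Of the 29 single-locus supernumerary subunits 21 fell in WT and 13 in CKO, with medians of -2.19 (range -6.61 to 0.89) and -0.49, so that the ranges overlap. Core subunits have longer mRNAs, with a median effective length of 1308 bases against 442 for the supernumerary ones, and the part of length in this difference was not tested.

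Length moved with the stage course over all genes. Spearman's rho between log2 fold change and effective length was 0.45 in WT and 0.44 in CKO across 10977 genes, shorter transcripts being lower in ovulated oocytes. Across the 40 members it was -0.09 in WT and -0.31 in CKO. The members' median effective length was 453 bases against 2423 for genes tested in ovulated oocytes. With the length trend of each library removed, 36 members were called in WT, beside 71.3% of all genes, 25 lower and 11 higher, the latter beside 39.9%. The median was then -1.34, beside 0.26 over all genes. In CKO 30 were called, beside 60% of all genes, 18 lower and 12 higher, the latter beside 33.3%, with a median of -0.23 beside 0.15 over all genes. In that fit Ndufa5 of the Q module and Ndufa6 of the N module rose in WT (0.77 and 0.54 on the log2 scale) in place of falling.

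At the GV stage, before maturation, no member was called between the genotypes. The count was 0 of 40, beside 0.0163% of all genes, and 1 of 40 had an unadjusted p under 0.05, beside 6.66% of all genes. DESeq2 and limma's voom with quality weights also called 0 members, beside 0.415% of all genes in DESeq2 and 114 of 12298 genes in voom. An unadjusted p under 0.05 was found for 2 members in DESeq2, beside 1078 genes, and for 4 in voom, beside 2346 genes. The log2 fold changes of 39 members ran from -0.46 to 0.63 with an SE of 0.17 to 0.37. Over all 40 members 33 were positive, and the median was 0.22 beside 0.03 over all genes. With the length trend removed that median was 0.01.

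The 3 smallest p-values at the GV stage belonged to Ndufa12, Ndufb4b and Ndufa2. Ndufa12, an N-module subunit, measured 19.6, 38.3, 24.2 and 19.2 CPM in WT and 52.5, 44.4, 32.6 and 27.2 CPM in CKO, a log2 fold change of 0.62 (SE 0.28, edgeR adjusted p = 0.744). Ndufb4b measured 1.79, 1.76, 2.39 and 1.38 CPM in WT and 3.92, 2.36, 2.85 and 2.22 CPM in CKO, a log2 fold change of 0.63 (SE 0.30, edgeR adjusted p = 0.746). In both the groups overlapped.

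Ndufa2, a small N-module subunit with a thioredoxin-like fold, measured 187, 201, 177 and 174 CPM in GV WT and 242, 306, 240.2 and 189 CPM in GV CKO. Its log2 fold change was 0.39 (SE 0.19, edgeR adjusted p = 0.758), and the groups overlapped. Ndufab1 was the only member whose GV groups did not overlap, by a margin under 1 CPM, beside 2.63% of all genes that were higher without overlap.

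The 3 GV libraries that stood apart differed from the other 5 in some members irrespective of genotype. Ndufv1, the core subunit that binds NADH and FMN, was at 26.8 to 37.9 CPM in GV WT 2, GV CKO 1 and GV CKO 2 and at 54.0 to 81.8 CPM in the other 5. Ndufs1 was at 18.7 to 21.2 CPM against 24.8 to 29.5 CPM. In the other direction Ndufa1 was at 53.6 to 63.5 CPM in the 3 libraries and 29.1 to 42.2 CPM in the other 5, and Ndufb6 was at 77.9 to 102 CPM against 51.0 to 70.3 CPM. Of the 40 members 3 were lower in the 3 libraries without overlap, beside 12.3% of all genes, 10 were higher without overlap, beside 12.8%, and 27 overlapped. Without the 3 libraries the comparison of GV genotypes again called 0 members, beside 0.51% of all genes.

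In ovulated oocytes most complex I transcripts were higher in CKO than in WT. Of 39 members tested 25 were called, all higher, beside 6.44% of all genes called higher and 7.84% called in either direction. The median log2 fold change was 1.80, beside -0.0010 over all genes, and Ndufa10 was the only member with a negative one. The groups did not overlap in 26 of 39 members, all higher in CKO, beside 15.8% of all genes. Ndufa4l2 was not tested, with 0 counts in the WT libraries and 0, 2 and 2 counts in the CKO libraries.

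**Figure D3:**
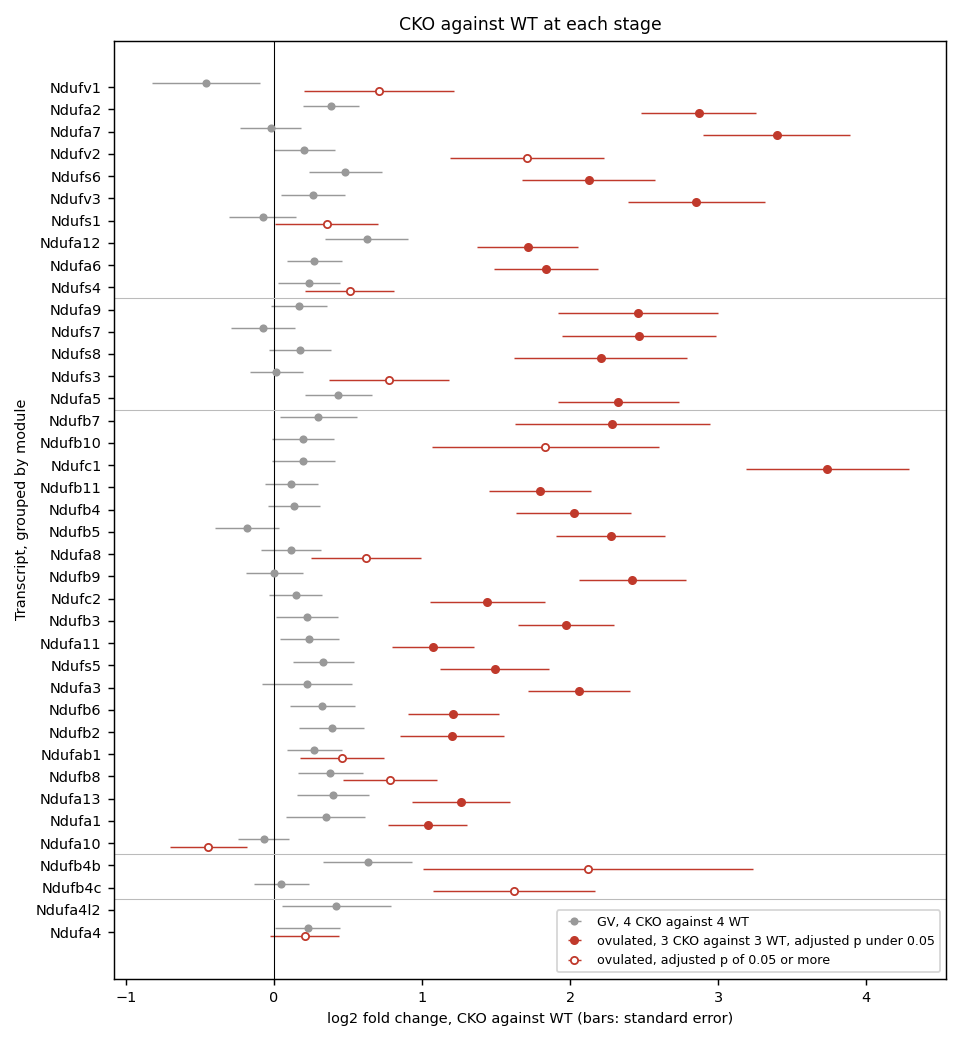
Log2 fold change of CKO against WT for 39 members in GV oocytes (grey) and ovulated oocytes (red, filled where called), with the approximate SE as bars. The grey points lie between -0.46 and 0.63, and the red points reach 3.74 for Ndufc1, with Ndufa10 the only one below 0.

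The N and P modules held the members with the smallest p. Ndufa2 measured 8.82, 10.6 and 10.9 CPM in ovulated WT and 36.7, 123 and 56.7 CPM in ovulated CKO, a log2 fold change of 2.87 (SE 0.39, edgeR adjusted p = 0.000592). Ndufa7, an N-module supernumerary subunit, measured 2.45, 4.71 and 1.35 CPM in WT and 13.5, 45.7 and 27.8 CPM in CKO, a log2 fold change of 3.40 (SE 0.50, edgeR adjusted p = 0.00108). In both genes the lowest CKO library was well above the highest WT library.

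Ndufc1, a small membrane-arm subunit (Entrez gene 66377, chromosome 3, 51405479 to 51408955 in GRCm38.p6), had the largest fold change. It measured 0.621, 0.936 and 0.392 CPM in ovulated WT, from 11 to 29 counts, and 5.79, 15.0 and 4.65 CPM in CKO, from 155 to 590 counts. The log2 fold change was 3.74 (SE 0.55, edgeR adjusted p = 0.00113). In GV oocytes the same gene stood at 11.5 to 14.3 CPM in WT and 11.1 to 17.6 CPM in CKO, so that ovulated CKO 2 alone reached the GV range.

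Ndufb9, a membrane-arm subunit that docks an acyl carrier protein, measured 4.38, 7.71 and 4.56 CPM in ovulated WT and 17.8, 36.6 and 32.3 CPM in CKO, a log2 fold change of 2.42 (SE 0.36, edgeR adjusted p = 0.00127). Ndufb5, a further membrane-arm subunit, measured 7.17, 6.91 and 11.1 CPM in WT and 22.3, 57.9 and 39.3 CPM in CKO, a log2 fold change of 2.27 (SE 0.37, edgeR adjusted p = 0.00187). Neither gene's groups overlapped. Exons of Ndufb5 overlap those of Mrpl47 on the other strand, and exons of Ndufb9 overlap those of Gm49356 on the same strand. In all, exons of 17 members overlap another gene's, and Ndufb2 and Ndufb8 also have an overlap on the same strand. No source used here says whether reads were counted by strand, which would not separate genes on the same strand. Of the 23 members without such an overlap 14 were called higher, and of the 17 with one 11 were, the 17 including Ndufa4l2, which was not tested.

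By module, 6 of 10 N-module, 4 of 6 Q-module and 15 of 20 P-module subunits were higher in ovulated CKO, with median log2 fold changes of 1.77, 2.27 and 1.47. Among the 7 core subunits 2 were called. Ndufs7 measured 2.29, 7.79 and 4.92 CPM in ovulated CKO against 0.932, 0.807 and 1.03 CPM in WT, a log2 fold change of 2.47 (SE 0.52, edgeR adjusted p = 0.00901). Ndufs8, a Q-module core subunit that carries iron-sulphur clusters, measured 0.497, 1.19 and 0.748 CPM in WT and 1.46, 5.13 and 4.38 CPM in CKO, a log2 fold change of 2.21 (SE 0.58, edgeR adjusted p = 0.0305). Neither gene's genotypes overlapped, and in ovulated CKO they stood at 8.53% and 9.72% of their GV CKO level.

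The other 5 core subunits had positive fold changes that did not pass. Ndufv2, an N-module subunit with an iron-sulphur cluster, measured 7.45, 5.61 and 7.98 CPM in ovulated WT and 4.70, 35.9 and 26.9 CPM in CKO, a log2 fold change of 1.71 (SE 0.52, edgeR adjusted p = 0.0576). Ovulated CKO 1 lay below the WT range and the other 2 CKO libraries above it.

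Ndufs3, a Q-module core subunit, measured 5.12, 5.42 and 10.1 CPM in ovulated WT and 6.53, 15.4 and 12.7 CPM in CKO, a log2 fold change of 0.77 (SE 0.41, edgeR adjusted p = 0.267). Ndufv1 measured 3.14, 2.03 and 3.31 CPM in WT and 2.58, 8.38 and 2.61 CPM in CKO (0.71, SE 0.51, edgeR adjusted p = 0.438). Ndufs1 measured 6.49, 8.55 and 7.16 CPM in WT and 10.5, 10.9 and 6.31 CPM in CKO (0.36, SE 0.35, edgeR adjusted p = 0.594). In these 3 genes the groups overlapped, and the fold change of Ndufv1 was -0.087 without ovulated CKO 2.

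The lower end of the comparison was held by Ndufa10 and Ndufa4, which also rose from GV to ovulation in WT. Ndufa10 measured 140.0, 117 and 168 CPM in ovulated WT and 105, 78.2 and 123 CPM in CKO, a log2 fold change of -0.44 (SE 0.26, edgeR adjusted p = 0.325). Ndufa4 measured 228, 286 and 234 CPM in WT and 284, 236 and 321 CPM in CKO, a log2 fold change of 0.21 (SE 0.24, edgeR adjusted p = 0.656). The groups overlapped in both.

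The remaining called members were Ndufv3, Ndufa6, Ndufa12 and Ndufs6 in the N module, Ndufa5 and Ndufa9 in the Q module, and Ndufa1, Ndufa3, Ndufa11, Ndufa13, Ndufb2, Ndufb3, Ndufb4, Ndufb6, Ndufb7, Ndufb11, Ndufc2 and Ndufs5 in the P module, with log2 fold changes from 1.04 for Ndufa1 to 2.85 for Ndufv3. Of these Ndufb2 alone had overlapping groups. Of the members with AAGATGGC in the promoter 5 of 7 were called with a median of 2.12, and 18 of the 27 other members with a promoter were called with a median of 1.71; the difference was not tested.

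Single libraries weighed on this comparison. Ovulated CKO 2 was the highest of the 3 CKO libraries for 34 of 40 members, and ovulated CKO 1 the lowest for 33. Ovulated CKO 1 still lay above every WT library for 28 members. Without ovulated CKO 2 the fit called 13 members, all higher, beside 2.77% of all genes called and 2.5% called higher, with a median of 1.39. Leaving out each library in turn gave 13 to 30 calls, the 30 without ovulated CKO 1, where 1652 of 12431 genes were called. In every one of these fits 13 members were called: Ndufa2, Ndufa3, Ndufa5, Ndufa6, Ndufa7, Ndufa12, Ndufb3, Ndufb4, Ndufb5, Ndufb9, Ndufb11, Ndufc1 and Ndufv3.

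Transcript length moved with this comparison too. Across the 39 members Spearman's rho between fold change and effective length was -0.38, and across 10581 genes it was -0.22, shorter transcripts being higher in CKO. With the length trend of each library removed, 10 members were called, beside 8.78% of all genes, and the median log2 fold change was 0.70, beside -0.09 over all genes. In that fit 9 were higher, namely Ndufa2 (1.58), Ndufa7 (1.94), Ndufa9 (2.00), Ndufa11 (1.01), Ndufb3 (0.95), Ndufb5 (1.41), Ndufb9 (1.30), Ndufc1 (2.11) and Ndufv3 (1.41), and Ndufa4 was lower (-1.07). Members were 9 of those called higher, beside 5.09% of all genes. What makes transcript length move with genotype was not tested.

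**Figure D4:**
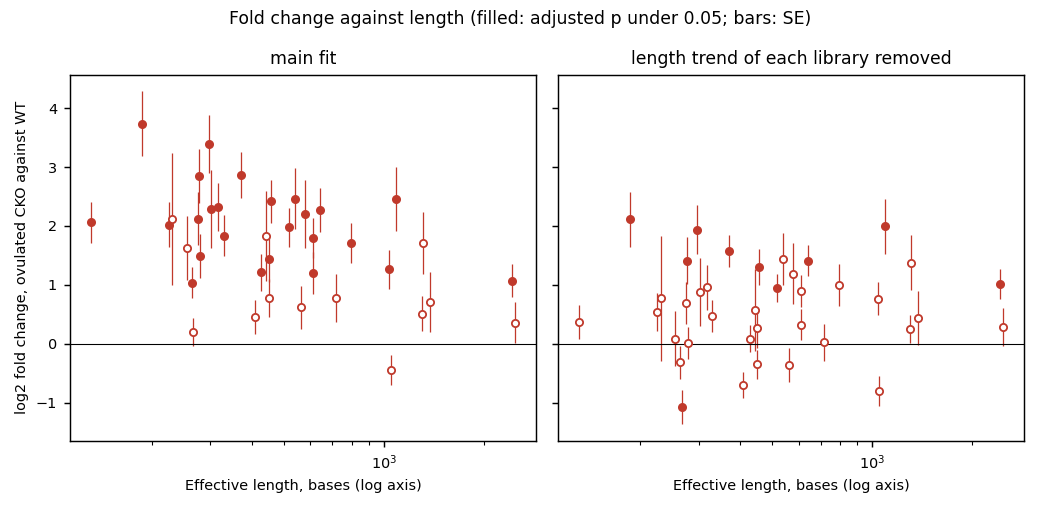
Log2 fold change of ovulated CKO against WT (vertical axis, bars: SE) against effective transcript length in bases (log axis) for 38 tested members, in the main comparison (left) and after the length trend of each library was removed (right), filled where called. The left panel holds 25 filled points, all above 0, and the right panel holds 9 above and 1 below 0.

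The effect of genotype differed between the stages in 12 of 40 members, each with a more positive effect in ovulated oocytes, beside 3.17% of all genes in that direction and 3.26% in either. The 3 smallest p-values were those of Ndufc1 (difference of log2 fold changes 3.48, SE 0.55, edgeR adjusted p = 0.00261), Ndufa7 (3.35, SE 0.56, edgeR adjusted p = 0.00371) and Ndufb9 (2.36, SE 0.41, edgeR adjusted p = 0.00466), whose values in every ovulated library stand above. In GV oocytes Ndufa7 measured 39.6, 42.9, 39.0 and 36.4 CPM in WT and 33.2, 55.2, 40.6 and 29.0 CPM in CKO. Ndufb9 measured 43.8, 56.3, 54.1 and 47.3 CPM in GV WT and 42.6, 67.6, 52.1 and 42.1 CPM in GV CKO. The GV genotypes overlapped in both, as they did in Ndufc1.

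The median difference was 1.51 over the 40 members, beside -0.07 over all genes, and 3 N-module, 3 Q-module and 6 P-module subunits passed. This test shares the ovulated libraries with the comparison of ovulated genotypes and is not independent of it. Without ovulated CKO 2 it called 6 members, all more positive, beside 0.957% of all genes in either direction and 0.935% in that one, and without ovulated CKO 1 it called 22, all more positive, beside 7.46% and 6.71%.

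**Figure D5:**
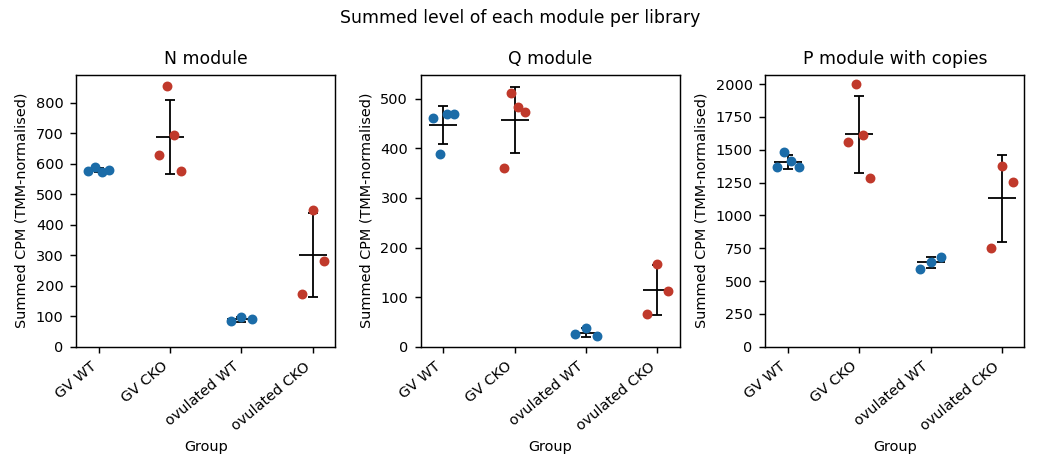
Summed CPM of the N module, the Q module and the P module with the Ndufb4 copies in each library (points), with mean and SD as bars. In each panel the ovulated CKO points lie above the ovulated WT points, and the N- and Q-module points of ovulated CKO lie below all GV points.

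Summed per library, the 40 transcripts made 2481 to 2571 CPM in GV WT, 2411 to 3515 CPM in GV CKO, 932 to 1066 CPM in ovulated WT, and 1278, 2232 and 1973 CPM in ovulated CKO. The N module summed to 82.8, 96.7 and 89.4 CPM in ovulated WT and to 175, 449 and 282 CPM in ovulated CKO. The Q module summed to 25.5, 38.3 and 22.0 CPM in ovulated WT and to 66.3, 167 and 112 CPM in ovulated CKO. The ratio of the mean sums, CKO over WT, was 1.81 in ovulated and 1.14 in GV oocytes, with no test of a sum over members.

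Other lists of respiratory genes, chosen like the modules with earlier results of these data known, are given for comparison in ovulated CKO against WT. Their counts stand beside 6.44% of all genes called higher and 7.84% called in either direction. Counts and medians of these lists are from fits that keep the length trend, and the part of length in them was not tested. Of 16 tested complex I assembly factors 4 were higher, Nubpl, which delivers iron-sulphur clusters to complex I (1.71), Dmac1 of membrane-arm assembly (1.97), Ndufaf8 (1.69) and Tmem126b of the early assembly complex (3.20 on the log2 scale), and the median was 0.80. In complex II, 1 of 4 was higher (Sdhb, 1.49). In complex III, 5 of 9 were higher, with the smallest p for Uqcrh (2.67), Uqcrq (2.38) and Uqcr10 (2.30).

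In complex IV, 8 of 13 were higher, with the smallest p for Cox7c (4.31), Cox7b (3.36) and Cox4i1 (2.57), and in ATP synthase 9 of 14, with the smallest p for Atp5j (3.27), Atp5e (2.77) and Atp5l (2.07). The medians were 0.83 in complex II, 1.81 in complex III, 1.43 in complex IV and 1.68 in ATP synthase, beside 1.80 over the complex I members. No subunit of any of these complexes and no assembly factor was called lower in this fit, and fold changes reached down to -0.997 among the assembly factors, -0.50 in complex II and -0.54 in ATP synthase. Of 6 tested transcription factors of respiratory genes, edgeR called 0, with 3 at an unadjusted p under 0.05 and 2 called by each of DESeq2 and voom. At the GV stage edgeR and DESeq2 called none of the genes in these lists, with 3 assembly factors and 1 complex III subunit at an unadjusted p under 0.05 in edgeR.

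From GV to ovulation in WT, 14 of 18 assembly factors, 3 of 4 complex II, 7 of 9 complex III, 8 of 13 complex IV and 13 of 14 ATP synthase subunits were lower, beside 36.2% of all genes, with medians of -2.26, -2.73, -2.73, -1.31 and -3.67. The assembly factor Ndufaf2 (0.87) and the complex IV subunit Cox6b2 (1.86) were higher, beside 30.3% of all genes. Markers of the oocyte itself also differed between ovulated genotypes: Zp2 and Zp3, coat proteins of the egg, and Figla, an oocyte transcription factor, were higher in ovulated CKO (2.33, 1.41 and 4.06 on the log2 scale). These were the called ones of 9 oocyte markers, of which 3 had negative fold changes down to -0.79, with a median of 0.28, and their summed level averaged 18266 CPM in the ovulated WT libraries against 16352 CPM in the CKO ones. Zp2, Zp3 and Figla were lower in ovulated than in GV oocytes of either genotype. Their part in the results for complex I was not tested.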

How the data were processed

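RNA was measured in mouse oocytes by RNA-seq of SMART-SeqII cDNA, which is amplified by PCR before library preparation, per the labels' protocols. Per the file headers, the authors deposited read counts per gene, used here as estimated counts because 17.64% of GV and 18.35% of ovulated values were not whole numbers within 0.001, and FPKM values per gene that the authors normalised to length and depth. The genome build was mm10, as the submitters' processing notes state, and no source used here names the aligner, counter or annotation. A search for genes of the mitochondrial genome found 0 at either stage. Whether the deposited rows hold such genes under other names, or RNAs other than mRNA, was not tested.

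Estimated counts were rounded to whole numbers. Genes were filtered with filterByExpr, normalised by TMM and fitted with edgeR 4.0.16 (R 4.3.3, robust quasi-likelihood), 1 fit per stage for genotype and 1 fit of all 14 libraries on the 16196 genes of both tables for stage and for the difference between stages. P-values were adjusted over all genes tested. Alternatives used DESeq2 1.42.0, limma 3.58.1 (voom, and limma-trend on log2(FPKM + 1) or log2(FPKM + 0.1) with a minimum mean of 0.5 FPKM), other size factors, no filter, a length trend (loess, span 0.3) removed per library, a log2 fold limit of 1, a replicate block and each library left out. The fits were tested on simulated data. PCR reads are not independent molecules.

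The members and the gene lists were chosen with earlier results of these data known. Genes named are Mff, the core subunits, the members with the smallest p (5 in ovulated oocytes, 3 elsewhere), the 2 lowest ovulated fold changes, the extremes of FPKM, Ndufa4 and Ndufa4l2, and up to 3 called genes of each other list; further members are named as parts of counts, after their values were seen. A single member, which stays in all counts and medians, is not reported here on its own.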

Additional observations from a re-analysis of the deposited data

Results flagged for a closer look

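The effect of Mff loss differed between the GV and the ovulated stage in 12 members, by an interaction term in edgeR's quasi-likelihood test over all genes. The difference of log2 fold changes, ovulated minus GV, was 3.48 for Ndufc1, 3.35 for Ndufa7, 2.36 for Ndufb9, 2.41 for Ndufb5, 2.43 for Ndufa2 and 2.49 for Ndufs7. It was 2.52 for Ndufv3, 1.85 for Ndufb4, 1.63 for Ndufb11, 1.69 for Ndufb3, 2.24 for Ndufa9 and 1.98 for Ndufs8. Edge cases were Ndufa9 (edgeR adjusted p = 0.0293) and Ndufs8 (edgeR adjusted p = 0.0496), and both lost the call without ovulated CKO 2. Without that library 6 of the 12 kept it, namely Ndufc1, Ndufa7, Ndufb9, Ndufb5, Ndufa2 and Ndufs7. Dixon's criterion for a value far from the rest of its group marked 0 of 84 groups of 4 GV values. The ovulated groups were not among these 84, so that the criterion says nothing about ovulated CKO 2.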

How the results depend on the processing

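In ovulated CKO against WT, where 25 members were called, limma-trend on log2(FPKM + 1) without a filter called 0, and 13 genes in all. Removal of the length trend called 10 (929 of 10581 genes), of which 9 were among the 25. A log2 fold limit of 1 called 9 (198 of 12010 genes, where the main fit called 942). Leaving out each library gave 13 (without ovulated CKO 2, 341 of 12296 genes) to 30 (without ovulated CKO 1, 1652 of 12431 genes). Leaving out ovulated WT 3 and CKO 2 together, chosen after seeing the data, gave 12 (235 of 12076 genes). Other size factors, no filter, DESeq2, voom, filtered FPKM and all groups in 1 fit gave 21 to 28, beside 660 to 1953 genes. For the difference between stages, 12 (430 of 13199 genes) became 19 in DESeq2 (883 of 13672) and 2 with the fold limit (62 of 13199). Leaving out single libraries, the count ran from 6 without ovulated CKO 2 (129 of 13475) to 22 without ovulated CKO 1 (1006 of 13482). From GV to ovulation in CKO, 27 (7183 of 13199 genes) became 17 with the fold limit (3336 of 13199). In WT no alternative moved 34 (8769 of 13199 genes) by over 1.5 times. The GV comparison gave 0 in every alternative, beside 1 to 114 genes called.

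Some signs turned. With the length trend removed the ovulated log2 fold change was -0.31 for Ndufa1, -1.07 for Ndufa4, -0.70 for Ndufab1, -0.35 for Ndufb8 and -0.36 for Ndufa8. Members above 0 then numbered 33 of 39 in place of 38. From GV to ovulation in WT the log2 fold change was 0.28 for Ndufa12, 0.77 for Ndufa5, 0.54 for Ndufa6, 0.050 for Ndufs4 and 0.43 for Ndufs5. There 5 members below 0 and not called turned to called rises (Ndufab1, Ndufb2, Ndufb6, Ndufb8 and Ndufa3). In CKO 18 members were above 0 in place of 10. Among those that turned in CKO, Ndufab1 (0.78) and Ndufb3 (0.59) were called rises, and Ndufb9 stood at 0.22 and Ndufs4 at 0.057. For Ndufv1 in ovulated oocytes leave-one-out values ran from -0.087 (without CKO 2) to 0.99 (without CKO 1). The cause was not tested.

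Each library's deviations from its group mean, in log CPM over all genes of the joint fit, were correlated between libraries with the same replicate number. Pearson's r of these deviations, not of the levels themselves, ran from -0.307 to 0.395. Whether replicate numbers mark shared animals or days was not tested. With a replicate block 26 members were called in ovulated oocytes (942 genes became 1630) and 14 for the difference between stages (430 genes became 337). For the courses in WT and CKO 34 and 28 were called (8769 and 7183 genes became 8576 and 6877). In GV 0 were called, beside 2 genes.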
